A study of Mus musculus with 6 samples.

Results

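The chemokine and homing receptors described here are 8 genes, Cxcr4, S1pr1, Cxcr2, Ccr1, Ccr2, Cx3cr1, Ccr7 and Ccr9. They were chosen by gene name, as every non-control probe that the scanner files assign to one of these names, which gave 11 of 55681 probes and 8 of 34821 gene names. Transcripts were measured in LSK cells, bone marrow cells that lack lineage markers and carry Sca-1 and c-Kit, among which are the blood stem cells of the mouse. They were sorted fresh, without treatment, from NIKaly/aly mice (samples 2, 4 and 6) and from wild-type mice (samples 1, 3 and 5), and each sample was hybridised to 1 one-colour array. NIKaly/aly mice carry, on both copies of Map3k14, a point mutation that disables the NF-kB inducing kinase in every cell of the animal, in the marrow niche as well as in the sorted cells. The strain, age and number of animals per sample are not given in the sources used here, so the p-values rest on a spread among samples that may be technical.

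Chemokine receptors and the sphingosine 1-phosphate (S1P) receptors sit in the cell membrane, bind a secreted ligand outside the cell and signal mostly through inhibitory G proteins to steer migration. Cxcr4 holds hematopoietic stem and progenitor cells in the marrow through its ligand Cxcl12, while S1pr1 draws cells toward the S1P of blood and lymph. The other receptors are best known from mature leukocytes, where they direct release from the marrow or homing to tissues, and some of their ligands are targets of alternative NF-kB signalling in lymphoid stroma. The comparison asks how the defective kinase alters receptor transcripts in the LSK population.

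Of the 59305 non-control spots, 33.1% to 45.6% were well above background on an array. No spot was saturated, and precision is limited by there being 3 arrays a genotype. All 11 LSK markers examined, Kit and Ly6a (which encodes Sca-1) among them, were well above background on at least 1 array, 10 of them on all 6. The mature neutrophil markers S100a9 and Camp and the other 13 of that list were well above background on all 6 arrays as well, although sorting for LSK cells should remove neutrophils. Samples 1 and 2 stood apart, with an erythroblast marker signal summed over 12 genes of 996 in NIKaly/aly 2 and 2680 in wild type 1, in multiples of each array's 75th percentile, against 59.6 to 190 on the other 4 arrays. The quality summary of the file headers marked NIKaly/aly 6 and wild type 1 for evaluation. In such bulk samples, fewer cells of a type and less RNA per cell cannot be told apart.

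Of the receptors, 5 were well above background on all 6 arrays (Cxcr4, S1pr1, Cxcr2, Ccr7 and Ccr9), Cx3cr1 on 5, Ccr2 on 4 and Ccr1 on none. The 7 other than Ccr1 passed the filter on dim probes and entered the test. None of the 7 passed an adjusted p of 0.05 between genotypes (limma, Benjamini-Hochberg adjusted p = 0.99998 for each). Of the 15682 genes tested 0% passed, and 1.33% had an unadjusted p under 0.05, Cx3cr1 among them. Of the 7, 6 read lower in NIKaly/aly and 1 higher, where 51.5% of all genes read lower. Their median log2 difference was -0.20, against -0.008 for all genes. The genotypes did not overlap for 1 receptor, Cx3cr1, as was the case for 4.57% of all genes (2.68% higher and 1.89% lower in NIKaly/aly). It was also the 1 receptor at least 2-fold apart, as 2.07% of all genes were. Cxcr2 and Cx3cr1 kept 1 direction in each of the 3 pairs of consecutive samples (2 and 1, 4 and 3, 6 and 5), as 30.1% of all genes did. With these pairs as a block none of the 7 passed either, and 0.0128% of all genes did.

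**Figure D1:**
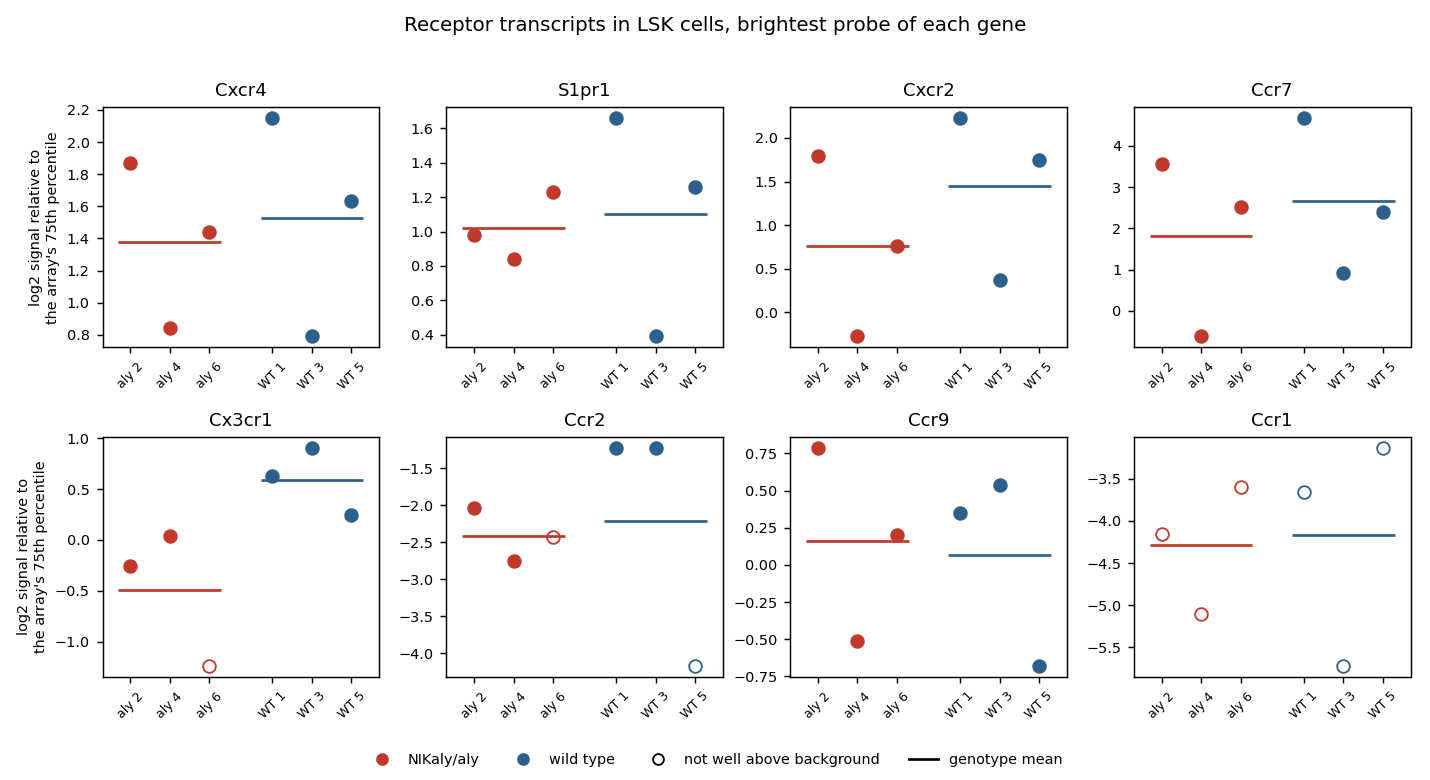
Log2 signal relative to the array's 75th percentile (vertical axis, a separate scale in each panel) of the brightest probe of each receptor on the 3 NIKaly/aly and 3 wild-type arrays. Filled points are well above background, open points are not, and lines are genotype means. The genotypes are separate only for Cx3cr1, and Ccr1 is open on all 6 arrays.

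**Figure D2:**
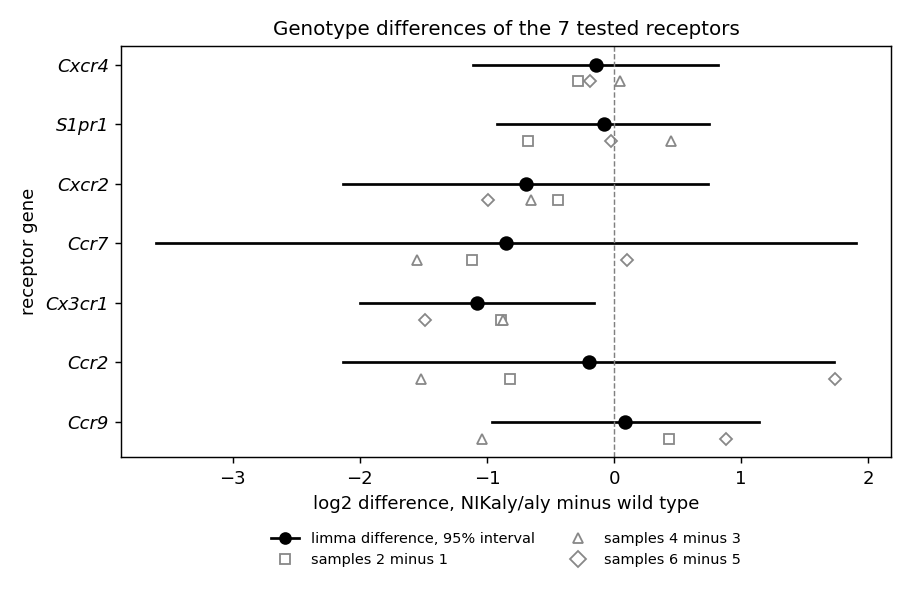
Log2 difference, NIKaly/aly minus wild type, of the 7 tested receptors with its 95% interval (black), and the difference within each pair of consecutive samples (grey symbols). The interval of Cx3cr1, -2.0 to -0.16, is the only one that leaves out 0, before adjustment for the number of genes.

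Cx3cr1, the receptor for the membrane-bound chemokine fractalkine, marks monocytes and a fraction of macrophage and dendritic cell progenitors. Its brightest probe read -0.26, 0.04 and -1.24 in NIKaly/aly 2, 4 and 6, against 0.63, 0.91 and 0.25 in wild type 1, 3 and 5, in log2 units relative to the array's 75th percentile. All 3 NIKaly/aly arrays lay below all 3 wild-type arrays, and NIKaly/aly 6 was not well above background. The means were -0.49 ± 0.67 in NIKaly/aly and 0.59 ± 0.33 in wild type (SD, n = 3 each). The difference was -1.08 ± 0.40 (SE), which is 0.472 of the wild-type level with a 95% interval of 0.249 to 0.895. Before adjustment its p was 0.0267 in limma, the 110th smallest of 15682 genes, and the adjusted p was 0.99998. An absolute difference larger than this was seen in 1.68% of genes.

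Cx3cr1 had 3 probes, and their ends are shown because the difference depended on which one was read. The last 30 bases of each 60-base probe are given 5′ to 3′ as the scanner files hold them, with the 25 bases that the first and second share in these stretches in capitals.
A_55_P2007964: attctGTCAATAAACATTGGTTTCCTTCCA
A_55_P2054362: GTCAATAAACATTGGTTTCCTTCCAgctct
A_52_P99810: ggtctcatttgcaggcttacattgaaagtt
On the mm9 build they lie on the minus strand, the stretches at chr9:119957811-119957840, chr9:119957806-119957835 and chr9:119959018-119959047. The files give no exon or UTR annotation for them. The first and second whole probes share 55 bases and are close to 1 measurement made in 2 spots. Both hold AATAAA, the usual polyadenylation signal, as do 3 of the 11 receptor probes and 10.1% of all probes on the array. The third probe lies 1147 bases upstream of the nearer of them.

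The second Cx3cr1 probe read -0.57, -0.54 and -1.85 in NIKaly/aly 2, 4 and 6, against 0.01, 0.41 and -0.35 in wild type 1, 3 and 5. As with the first, the genotypes did not overlap, and its difference was -1.01 ± 0.44 (limma over every tested probe, adjusted p = 0.99998). The upstream probe read -2.32, -2.0 and -3.62 in NIKaly/aly, against -2.23, -2.21 and -1.79 in wild type. Here the genotypes overlapped, the probe was well above background on 1 of 3 NIKaly/aly and 2 of 3 wild-type arrays, and the difference was -0.56 ± 0.58. Within the pairs of consecutive samples the brightest probe differed by -0.89, -0.87 and -1.49, and the upstream probe by -0.08, 0.22 and -1.83. On NIKaly/aly 6 the upstream probe was not well above background and held the surrogate that replaces low signals, so the last of these differences has no measured size and the fitted one of -0.56 rests in part on it.

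**Figure D3:**
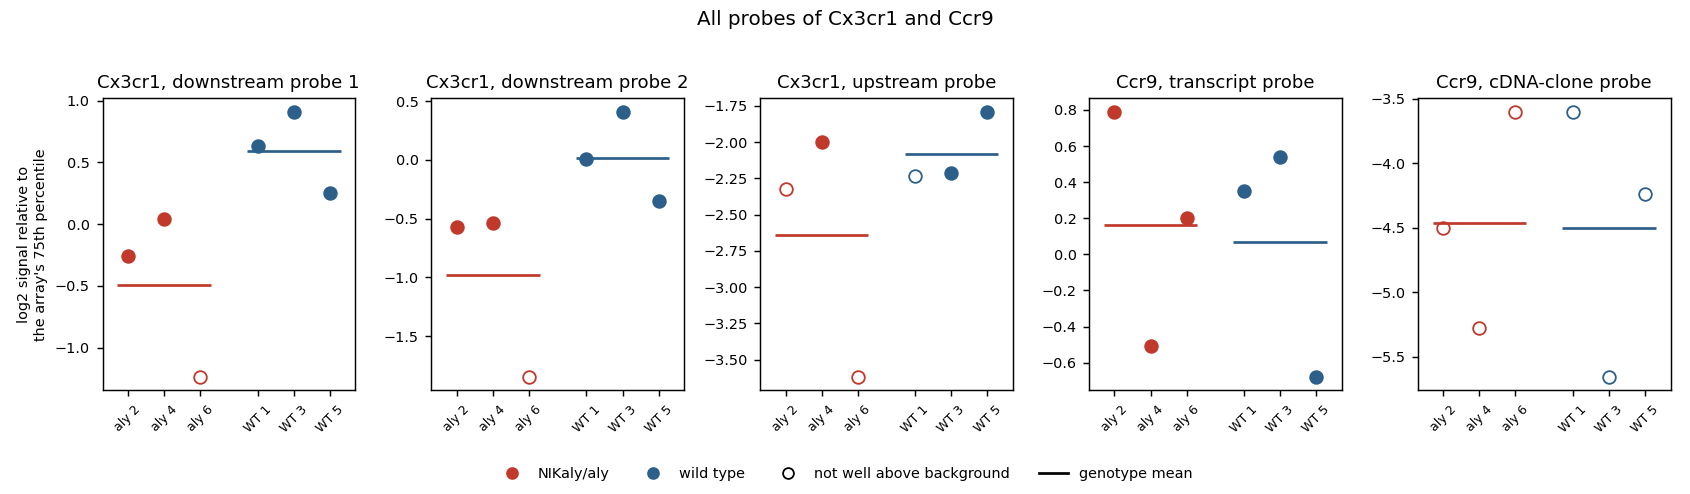
Log2 signal relative to the array's 75th percentile (vertical axis, a separate scale in each panel) of the 3 Cx3cr1 probes and the 2 Ccr9 probes on each array. Filled points are well above background and lines are genotype means. The 2 downstream Cx3cr1 probes separate the genotypes, the upstream probe does not, and the second Ccr9 probe is open throughout.

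The size of the Cx3cr1 difference moved with the setting. It was -0.54 with normexp background correction, -0.71 without NIKaly/aly 6, -0.88 among samples 1 to 4, which lay in slide row 1, and -1.49 between samples 6 and 5 of row 2. Markers of monocytes, macrophages and dendritic cells mostly read lower as well. Of 13 tested, 12 read lower in NIKaly/aly and 1 higher, with a median of -0.94, and -0.99 without samples 1 and 2. None passed the adjustment. Their signal summed over 16 genes was 127 to 215 in NIKaly/aly arrays and 201 to 282 in wild-type arrays, with 10 to 14 and 11 to 14 of them well above background. The brightest of the 13 tested, Siglech, read 5.94, 7.08 and 7.27 in NIKaly/aly 2, 4 and 6, against 6.13, 7.16 and 7.50 in wild type 1, 3 and 5. This linear sum rests in large part on Siglech, which differed by -0.17 ± 0.51 with overlap. Of these 16 genes, 9 were well above background on all 6 arrays. Only 2 were so on none, Mrc1 and Zbtb46, markers of tissue macrophages and classical dendritic cells. Ms4a6c, a gene of the monocyte lineage, read 0.12, 0.94 and -0.10 in NIKaly/aly 2, 4 and 6, against 3.49, 2.33 and 2.18 in wild type 1, 3 and 5. Csf1r, which encodes the macrophage growth factor receptor, differed by -1.17, Irf8, a transcription factor of monocyte and dendritic cell progenitors, by -1.22, and the integrin gene Itgax by -1.01, each with no overlap between genotypes. The part of these cells in the Cx3cr1 difference was not tested.

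Cxcr4 read 1.87, 0.84 and 1.44 in NIKaly/aly 2, 4 and 6, against 2.15, 0.79 and 1.63 in wild type 1, 3 and 5. The genotypes overlapped, and both arrays of samples 3 and 4 were low and both of samples 1 and 2 high. The difference was -0.14 ± 0.42 (SE, n = 3 each), or 0.906 of the wild-type level with a 95% interval of 0.463 to 1.77 (limma, adjusted p = 0.99998). Pairs of consecutive samples held 96.1% of the variance of Cxcr4 over the 6 arrays and the genotypes 2.04%, where the medians over all genes were 79.5% and 4.11%. Within the pairs, Cxcr4 differed by -0.28, 0.05 and -0.19. With the pairs as a block the difference had a standard error of 0.16 and an adjusted p of 0.860 in limma. The direction turned when NIKaly/aly 4 (0.13) or wild type 1 (0.17) was left out.

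S1pr1, which guides egress of lymphocytes and progenitors toward S1P, read 0.98, 0.84 and 1.23 in NIKaly/aly 2, 4 and 6, against 1.66, 0.39 and 1.26 in wild type 1, 3 and 5. The NIKaly/aly arrays all lay inside the wild-type range. The difference was -0.08 ± 0.36, or 0.944 of the wild-type level with an interval of 0.528 to 1.69. Its sign was not settled, at 0.01 with median scaling and 0.21 without samples 1 and 2. S1pr1 had the smallest spread over the 6 arrays of the 7 receptors tested, 1.27 log2 units from lowest to highest, close to the median of 1.21 over all genes.

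Cxcr2 binds the neutrophil-attracting chemokines and promotes release of neutrophils from the marrow. It read 1.79, -0.28 and 0.76 in NIKaly/aly 2, 4 and 6, against 2.23, 0.37 and 1.75 in wild type 1, 3 and 5. The genotypes overlapped, yet in each pair of consecutive samples the NIKaly/aly array was the lower one, by -0.44, -0.65 and -0.99. The difference was -0.69 ± 0.62, or 0.618 of the wild-type level with an interval of 0.229 to 1.67 (limma, adjusted p = 0.99998). With the pairs as a block the standard error was 0.18, the unadjusted p 0.00583 and the adjusted p 0.335 in limma, and 7.35% of all genes had an unadjusted p under 0.05 in that fit. Leaving out NIKaly/aly 4 gave -0.17, and leaving out wild type 3 gave -1.23.

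The mature neutrophil markers had a signal summed over 15 genes of 4490, 1350 and 4130 in NIKaly/aly 2, 4 and 6, against 7730, 1250 and 3590 in wild type 1, 3 and 5. Samples 3 and 4 were lowest in both. Of the 15 markers, 13 read lower in NIKaly/aly and 2 higher, and none passed. Their median difference was -0.16, and -0.47, -0.10 and 0.01 in the 3 pairs. The part of neutrophil RNA in the Cxcr2 level was not tested.

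Ccr2, which lets monocytes leave the marrow toward Ccl2, was dim. It read -2.04, -2.75 and -2.43 in NIKaly/aly 2, 4 and 6, against -1.22, -1.23 and -4.17 in wild type 1, 3 and 5. NIKaly/aly 6 and wild type 5, the 2 arrays of slide row 2, were not well above background. The difference was -0.20 ± 0.84, with a 95% interval of 0.229 to 3.31 as a ratio to wild type and it was -1.18 without wild type 5. Within slide row 1 it was -1.17, and in row 2 it was 1.74 between 2 signals near background. Ccr1, a receptor for inflammatory CC chemokines on myeloid cells, read -5.10 to -3.60 in NIKaly/aly and -5.72 to -3.13 in wild type and was not well above background on any of the 6 arrays, so no fold is given.

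Ccr7 directs lymphocytes and dendritic cells to lymph nodes along Ccl19 and Ccl21. It read 3.56, -0.62 and 2.51 in NIKaly/aly 2, 4 and 6, against 4.68, 0.93 and 2.40 in wild type 1, 3 and 5. The lowest and highest array differed by 5.29 log2 units, a 39.2-fold spread that exceeded that of 99.7% of tested genes. Samples 1 and 2 were the brightest and samples 4 and 3 the dimmest, so that the pairs, with 89.6% of the variance, separated the arrays more than the genotypes did. The difference was -0.85 ± 1.19, or 0.553 of the wild-type level with an interval of 0.0822 to 3.72 (limma, adjusted p = 0.99998). It was -1.12 and -1.55 in the pairs of slide row 1 and 0.10 in row 2, and it turned without NIKaly/aly 4 (0.36) or wild type 1 (0.15).

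B cell markers followed a similar course over the arrays. Their signal summed over 15 genes was 92.0, 20.0 and 53.0 in NIKaly/aly 2, 4 and 6, against 183, 42.1 and 48.7 in wild type 1, 3 and 5, highest in wild type 1 and lowest in NIKaly/aly 4, as for Ccr7. The T cell list (24.1 in NIKaly/aly 4, 49.1 in wild type 1) and the erythroblast list (59.6 in NIKaly/aly 4, 2680 in wild type 1) had their extremes on the same arrays. All 12 tested B cell markers read lower in NIKaly/aly, with a median of -0.79, and none passed. Each of the 15 on the B cell list was well above background on at least 1 array. Faim3, an Fc receptor for IgM, differed by -2.73 ± 1.72, Cd79a, a signalling chain of the B cell receptor complex, by -1.36 ± 1.20, and the adaptor gene Blnk by -0.67 ± 0.52. Within the pairs of consecutive samples (2 and 1, 4 and 3, 6 and 5), Faim3 differed by -2.12, -4.44 and -1.63. Cd79a differed by -1.53, -2.16 and -0.39, and Blnk by -0.49, -1.66 and 0.13. In NIKaly/aly 4, Faim3 read -5.38, as dim as the undetected Ccr1 in wild type (-5.72 to -3.13). The Faim3 pair difference of -4.44 therefore has no firm size, and the fitted -2.73 rests in part on that reading. With normexp correction the Faim3 difference was -1.15. The fitted differences of the 3 genes moved with the array left out. They were -0.84, -0.15 and -0.06 without NIKaly/aly 4, and -4.27, -2.29 and -1.01 without NIKaly/aly 2. T cell markers had a median of -0.15, with 3 higher and 6 lower, and Cd8a, Cd8b1 and Themis were not well above background on any array. NK cell markers had a median of -0.50, with 3 higher and 3 lower, and erythroblast markers of -0.26, with 1 higher and 7 lower. The part of lymphocyte RNA in the Ccr7 level was not tested.

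**Figure D4:**
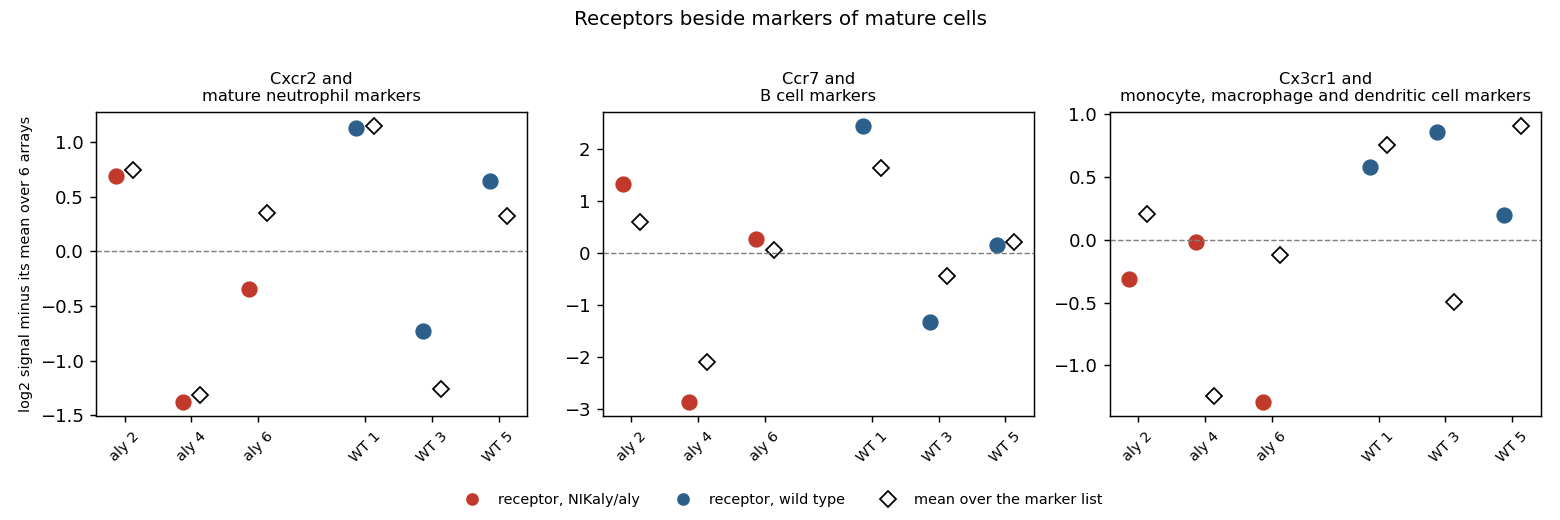
Log2 signal of Cxcr2, Ccr7 and Cx3cr1 on each array after subtracting its mean over the 6 arrays (filled points), beside the mean of a marker list centred the same way (open diamonds). Cxcr2 and Ccr7 lie low on NIKaly/aly 4 and wild type 3 together with the neutrophil and B cell lists, while Cx3cr1 on wild type 3 lies high where its list lies low.

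Ccr9, the receptor for Ccl25 that guides progenitors to the thymus and T cells to the gut, had 2 probes. The one on the RefSeq transcript read 0.79, -0.51 and 0.20 in NIKaly/aly 2, 4 and 6, against 0.35, 0.54 and -0.68 in wild type 1, 3 and 5, and was well above background on all 6 arrays. The genotypes overlapped, with a difference of 0.09 ± 0.46, or 1.06 of the wild-type level with an interval of 0.514 to 2.20 (limma, adjusted p = 0.99998). The pairs disagreed in sign, at 0.43, -1.04 and 0.88. Ccr9 was the only tested receptor to read higher in NIKaly/aly, and it read lower within slide row 1 (-0.30) and higher in row 2 (0.88). The other probe, designed on a cDNA clone 9339 bases upstream on mm9, was near background throughout and well above it on 0 of 6 arrays. The ends of the 2 probes are shown since they are the only pair on 1 receptor of which one was detected throughout and the other never.
A_52_P30312: catctctttgccagtgacatggcctttcct
A_55_P2308239: cttaaccactaagctatttctctagttcca
They lie on the plus strand at chr9:123690364-123690393 and chr9:123680965-123680994 on mm9.

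Among 20 measured ligands of these chemokine receptors, 14 were tested, of which 5 read higher and 9 lower in NIKaly/aly (median -0.29), and none passed. Ccl9, a myeloid CC chemokine that signals through Ccr1, read 3.44, 3.81 and 2.72 in NIKaly/aly 2, 4 and 6, against 4.86, 4.74 and 4.30 in wild type 1, 3 and 5. The genotypes did not overlap, and the difference was -1.31 ± 0.35 (limma, unadjusted p = 0.00575, adjusted p = 0.99998). It ranged from -1.56 to -0.96 over 22 alternative settings on the same arrays. Its receptor Ccr1 was well above background on 0 of 6 arrays, as given above. Cxcl12, the ligand of Cxcr4, read -3.83, -4.83 and -0.96 in NIKaly/aly, against -1.12, -3.87 and -1.34 in wild type. It was well above background on 1 of 3 and 2 of 3 arrays, and its difference of -1.09 ± 1.14 was -0.22 with normexp correction. Cxcl2, a ligand of Cxcr2, differed by 0.77 ± 0.60, by 0.34 with normexp, and by 0.30 without wild type 3 to 1.27 without wild type 5. For Cxcl12 leaving out 1 array gave -2.22 (without NIKaly/aly 6) to -0.28 (without NIKaly/aly 4). Cxcl1, Cxcl3, Cxcl5, Ccl7, Ccl8 and Ccl12 were not well above background on any array.

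Of 17 other chemokine receptors, all on the array, 6 were tested, 2 higher and 4 lower. Ccrl2, an atypical receptor that presents the chemoattractant chemerin without signalling itself, read 1.68, 1.34 and 1.88 in NIKaly/aly 2, 4 and 6, against 0.89, 0.28 and 0.66 in wild type 1, 3 and 5. Every NIKaly/aly array lay above every wild-type array, with a difference of 1.02 ± 0.29 (limma, unadjusted p = 0.00786, adjusted p = 0.99998) that ranged from 0.80 to 1.17 over 22 alternatives. The B cell follicle receptor Cxcr5 differed by -1.28 ± 1.10 and the T and NK cell receptor Cxcr3 by -0.81 ± 0.70, both with overlap. They were -0.39 and -0.30 with normexp correction, -2.24 and -1.41 without NIKaly/aly 2, and -0.39 and -0.18 without wild type 1. Ccr4, Ccr8, Xcr1 and Cmklr1 and the atypical receptors Ackr1, Ackr2 and Ackr3 were not well above background on any array.

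The other S1P receptors read lower without passing. S1pr2 differed by -0.71 ± 0.56, S1pr3 by -0.54 ± 0.48 and S1pr4 by -0.53 ± 0.65, all with overlap. S1pr2 was well above background on 4 of 6 arrays, S1pr3 on 5, S1pr4 on 6 and S1pr5 on 0. With normexp the S1pr2, S1pr3 and S1pr4 differences were -0.18, -0.22 and -0.16, and without NIKaly/aly 6 they were -0.33, -0.12 and -0.06. Of 6 tested genes for making, exporting and breaking down S1P, 3 read higher and 3 lower, with a median of -0.04. Of 33 tested genes of receptor signalling and desensitisation, 13 read higher and 20 lower (median -0.07), and none passed. Cd69, whose product binds S1pr1 and draws it into the cell, read 5.28, 4.87 and 5.03 in NIKaly/aly 2, 4 and 6, against 4.34, 4.11 and 4.24 in wild type 1, 3 and 5. The genotypes did not overlap, and the difference was 0.83 ± 0.27 (limma, unadjusted p = 0.0148, adjusted p = 0.99998). It ranged from 0.72 to 0.93 over 22 alternatives on the same arrays, with an unadjusted limma p under 0.05 in 17 of them. Adrbk1, now Grk2, a kinase that desensitises chemokine and S1P receptors, differed by -0.34 ± 0.26 and Gnai3, an inhibitory G protein subunit, by 0.35 ± 0.26, each without overlap. Rgs10, which shortens G protein signals, differed by -0.67 ± 0.38, and by -0.35 without NIKaly/aly 6. Of 10 tested LSK markers, 6 read higher and 4 lower in NIKaly/aly, with a median of 0.15, and none passed. Among them, Procr differed by 0.78 ± 0.28 without overlap and Ly6a by -0.68 ± 0.46 with overlap. Leaving out NIKaly/aly 6 gave -0.28 for Ly6a, leaving out wild type 1 gave -0.32 and leaving out NIKaly/aly 2 gave -1.0.

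The genes most like each receptor over the 6 arrays were found by the root mean square difference of log2 values after subtracting each gene's mean, among 10869 other tested genes with a gene symbol. Nearest to Cxcr4 was Tmsb4x (0.082 log2 units), which encodes the actin-binding thymosin beta 4. Nearest to Cxcr2 were Inhba (0.153) and Crispld2 (0.206), and to Ccr7 the B cell markers Spib (0.242) and Cd79a (0.270). Card6 (0.140) and Pdzd4 (0.174) were nearest to Cx3cr1, and Lepr and Cyp2u1 (both 0.102) to S1pr1. Gdf1 (0.172) and Dnajc17 (0.181) were nearest to Ccr9, and Tcstv3 (0.310) and Ring1 (0.391) to Ccr2. These are descriptions of 6 arrays.

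**Figure D5:**
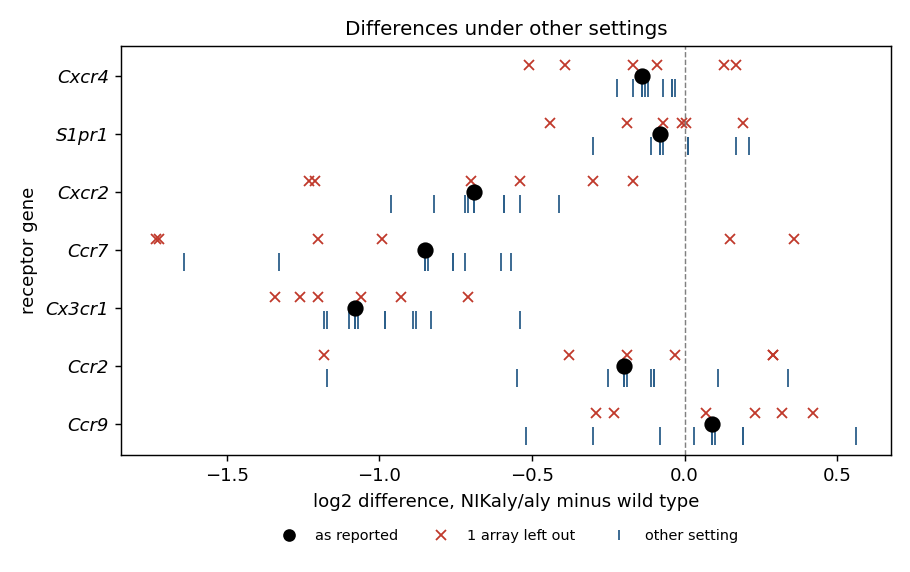
Log2 difference, NIKaly/aly minus wild type, of each tested receptor as reported (black), with 1 array left out (crosses) and under the other settings (bars). Cxcr2 and Cx3cr1 stay below 0 throughout, from -1.23 to -0.17 and from -1.34 to -0.54, and the other 5 lie on both sides of 0.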

How the data were processed

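Per the file headers, the authors obtained spot intensity values with Feature Extraction (Agilent, version 10.7.3.1) and placed probes on mm9. Per the labels' protocols, TRIzol RNA was linearly amplified and labelled with Cy3. In the deposited processed signal the background is already subtracted and a surrogate stands in for low values, as flag columns record. The authors' deposited series table equals it divided by each array's median and was used as an alternative.

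Control spots and spots flagged as outliers were left out, spots of 1 probe were averaged, and log2 values of the deposited signal had the array's 75th percentile subtracted. Probes well above background on at least 3 of 6 arrays were kept (21217, with a value on every array), and of each gene the brightest, leaving 15682 genes. The genotype test was limma (version 3.58.1, R 4.3.3, intensity trend, 4 residual degrees of freedom, two-sided, Benjamini-Hochberg at 0.05). The procedure was also run on simulated data with independent noise on each array. These lack the resemblance of consecutive samples, so that check does not cover it. All arrays came from 1 slide and 1 scan, so slide row and column were tried as blocks. Sample numbers are not shared by the genotypes, and consecutive samples were blocked because they resemble each other.

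The members, lists and alternatives were chosen with earlier results of these data known. Named genes are all 8 receptors, Cxcl12, the S1P receptors, up to 4 genes a list, by smallest unadjusted p (how many was decided after values were seen; S100a9, Camp, Kit and undetected genes are named for detection only) and the 2 genes most like each receptor; some of these are not reported here. List genes were matched by the files' names or an older or current symbol from a RefSeq gene table (GRCm38.p6); Ccl21a, Ly6c2 and Trac did not match.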

Additional observations from a re-analysis of the deposited data

How the results depend on the processing

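Each receptor difference was recomputed under up to 22 alternatives. Cx3cr1 and Ccr2 had no value with the filter at all 6 arrays. Cxcr2 (-1.23 to -0.17) and Cx3cr1 (-1.34 to -0.54) kept their direction in all of theirs. The others turned in some, and for these the cause was not tested. Leaving out 1 array gave -0.51 to 0.17 for Cxcr4, -0.44 to 0.19 for S1pr1, -1.73 to 0.36 for Ccr7, -1.18 to 0.29 for Ccr2, -0.29 to 0.42 for Ccr9 and -1.10 to 0.04 for S1pr4. S1pr1 was also 0.01 with normexp, median scaling and the authors' deposited table, 0.17 with array weights and 0.21 without samples 1 and 2. Ccr2 was 0.34 with slide column as a random block and 0.11 without samples 1 and 2. Ccr9 was -0.52 with array weights, -0.30 within slide row 1 and -0.08 without samples 1 and 2. Of 22 list genes recomputed in the same way, 21, all but S1pr4, kept their direction in every alternative that gave a value. Most of these were named for a small unadjusted p on the same arrays, so a kept direction follows in part from that choice. Of the receptors, 1 passed in 1 alternative, Cx3cr1 with slide column as a random block (-1.17, limma adjusted p = 0.00804, and 0.00804 to 1 over its 21 alternatives). There 1379 genes passed, since the estimated correlation within a column, which lies within genotype, was -0.88 and shrinks the error. Over all genes, 0 passed as reported, 1 with normexp, 10 with median scaling and with the authors' table, which repeats it, 2 without the filter, 5 with array weights, 2 with the pairs as a block, and 0 to 1 leaving out 1 array. No paired analysis was possible because the genotypes share no sample number, other than that block. Signal near background limits Ccr1, Ccr2, Cxcl12 and the upstream Cx3cr1 probe. Cxcr3, Cxcr5, S1pr2, S1pr3, Itgax, Faim3 and the downstream Cx3cr1 probes were also not well above background on every array.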
